A study of Mus musculus with 9 samples.

Results

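Profilin-3 (Pfn3) is an actin-binding protein of late male germ cells, and the genes described here are those that act beside profilins on the actin filament itself. The set holds 52 genes, 3 actins among them, for filament nucleation, elongation, capping, severing, stabilisation, membrane linkage and monomer sequestration, and was taken by symbol from the deposited table of 38674 genes. A row was present for 51 of the 52. Arpc4 was not analysed here. Every member's row was a locus that StringTie had assembled and that carries the gene's symbol, so a value is the count of that locus. Whether reads of a gene were assigned to another row in some libraries was not tested, and this bears on members that are near 0 in single libraries. Profilins and cofilins were not members and are given only as neighbours of the pathway.

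Testis RNA of 9 male C57BL/6 mice was sequenced from the 3′ end of polyadenylated transcripts with the QuantSeq kit, in 3 numbered samples of each genotype: Pfn3+/+ (WT), Pfn3+/- (Het) and Pfn3-/- (KO). Pfn3 had been disrupted by CRISPR/Cas9 deletions within its single exon, in all cells of the animal and not in the germ cells alone. Several deletion lines were made, and the line used for sequencing is not given in the sources used here. Per the study's methods, the males were adults between 2 and 6 months old. The tunica albuginea, the capsule of the testis, was removed before RNA extraction. The labels number the samples without naming the animals, so each number was taken as 1 animal, and p-values measure the spread between these samples only.

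Actin monomers join a filament mainly at its fast-growing barbed end and leave it at the pointed end. The Arp2/3 complex, switched on by WASP-family proteins, starts branches, formins and Ena/VASP proteins start or lengthen unbranched filaments, the CapZ heterodimer closes barbed ends, gelsolin and its relatives cut filaments, tropomodulins and tropomyosins stabilise them, and thymosins hold monomers in reserve. In the seminiferous epithelium, actin builds the junctional bundles of the Sertoli cell and, in spermatids, the acroplaxome plate under the acrosome. Peritubular myoid cells around the tubules contain a contractile actin apparatus with Acta2, Tpm1 and Tpm2.

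Start-site sequences are shown for 4 genes that the comparisons below turn on: Capzb, Diaph3 and Actr3, in which KO and WT animals did not overlap, and Actg1, the member called by DESeq2. Each line gives the 250 bases before the RefSeq transcript start, 5′ to 3′ on the gene's strand, from build GRCm38.p6. The Capzb window lies inside the annotated span of the gene given below, and the counts are per gene, not per transcript start. Capitals mark GGGCGG on either strand, with overlapping matches merged, and a CArG box, the serum response factor motif, which reads alike on both strands.

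Actg1, chr11:120348496-120348745, minus strand: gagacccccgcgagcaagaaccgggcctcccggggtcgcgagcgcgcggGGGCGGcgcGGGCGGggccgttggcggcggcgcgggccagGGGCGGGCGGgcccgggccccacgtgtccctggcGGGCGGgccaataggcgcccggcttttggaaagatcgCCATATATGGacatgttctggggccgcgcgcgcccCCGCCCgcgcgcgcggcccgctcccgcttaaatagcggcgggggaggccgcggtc
Capzb, chr4:139193861-139194110, plus strand: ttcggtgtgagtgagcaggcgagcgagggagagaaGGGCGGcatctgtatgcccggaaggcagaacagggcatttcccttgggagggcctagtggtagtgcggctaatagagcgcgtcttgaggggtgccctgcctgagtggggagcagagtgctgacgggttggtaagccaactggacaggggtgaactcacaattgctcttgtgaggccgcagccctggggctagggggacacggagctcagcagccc
Diaph3, chr14:87141225-87141474, minus strand: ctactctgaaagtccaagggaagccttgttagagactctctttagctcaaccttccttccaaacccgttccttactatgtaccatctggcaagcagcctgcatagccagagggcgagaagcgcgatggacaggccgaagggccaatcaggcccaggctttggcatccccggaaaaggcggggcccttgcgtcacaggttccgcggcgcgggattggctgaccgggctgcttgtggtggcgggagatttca
Actr3, chr1:125435728-125435977, minus strand: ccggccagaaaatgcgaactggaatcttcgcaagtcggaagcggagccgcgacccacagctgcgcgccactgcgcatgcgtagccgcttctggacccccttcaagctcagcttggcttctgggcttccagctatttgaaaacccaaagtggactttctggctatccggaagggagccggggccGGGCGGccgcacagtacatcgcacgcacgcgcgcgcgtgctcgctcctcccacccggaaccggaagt

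The Actg1 window was 79.2% G and C and held 6 matches to GGGCGG and 1 CArG box, which began 90 bases before the transcript start. The Capzb and Actr3 windows held 1 GGGCGG each and the Diaph3 window none. Of the 52 genes, 45 had a start-site window in RefSeq. GGGCGG on either strand was found in 36 of their 54 windows, and in 32.7% of all 32851 windows of this length. A CArG box was found in 3 of the 54 windows, those of Actg1, Arpc4 and Vil1, and in 1.47% of all windows. TATAAA on either strand was found in 0 of the 54 windows and in 12.4% of all windows. The median G and C content was 60.8% over the 54 windows and 52.4% over all windows. Start sites of Twf2, Diaph1, Arpc5l, Cttn, Actr3b, Actb and Tmod3 are not shown.

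By the recovered StringTie counts, between 3375546 and 4287335 reads per library lay on genes. The values below are these counts divided by 1 size factor per library (normalized counts), and 3 reads, taken as the limit of detection for counting error, correspond to between 2.58 and 3.71 normalized counts. Pfn3 itself measured 592, 383 and 373 in WT, 136, 339 and 326 in Het and 74.7, 215 and 279 in KO, so Pfn3 reads were counted in every library, the KO libraries included, and Het1 lay below KO2 and KO3. The study reported the Pfn3 deletion in its mutant lines by qRT-PCR, western blot and immunohistochemistry of testis. Its sequence alignments place the deletions inside the coding sequence. Where the counted 3′ reads lie relative to the deletion is not given in the sources used here, so these counts do not measure intact Pfn3 transcript alone. All 3 KO values lay below all 3 WT values (log2 fold change -1.41, SE 0.52, adjusted p = 0.61). The first WT and the first Het library stood apart from the rest. In WT1, 7 of the 48 members that reached 10 normalized counts in 3 or more of the 9 libraries were 4-fold or more below the median of the other 8 libraries, against 12.4% of all 14865 genes that passed the same filter. In Het1 this held for 3 of the 48, against 8.31% of all genes, and in the remaining libraries for 0 to 2. The members were thus affected about as often as other genes, and log2 fold changes that moved by over 1.5 times without WT1 are given both ways where they are printed.

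**Figure D1:**
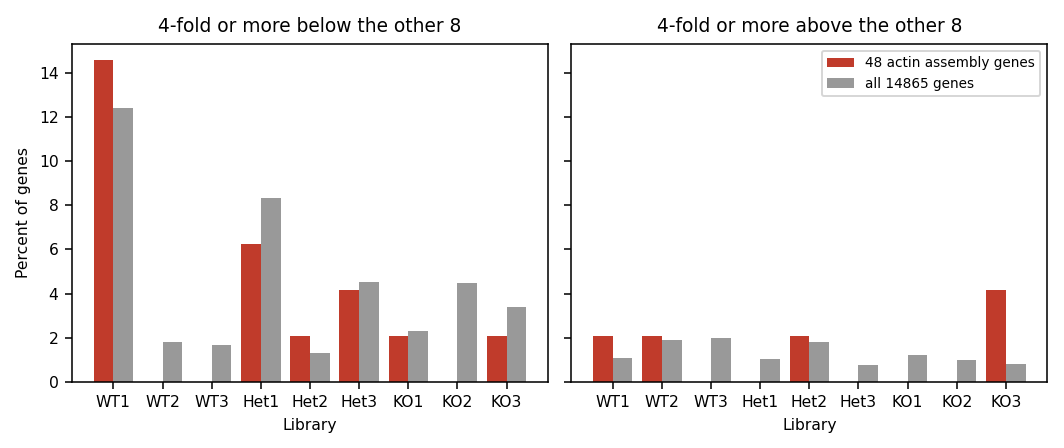
Percent of genes (vertical axis) that lay 4-fold or more below (left panel) or above (right panel) the median of the other 8 libraries, on normalized count + 1, for each library (horizontal axis). Red bars are the 48 actin assembly genes that passed the filter and grey bars all 14865 genes. WT1 has the highest bars on the left, with 14.6% of the members and 12.4% of all genes.

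Marker sums of some testis cell types lay apart between WT and KO. The unadjusted limma p was under 0.05 for 2 of 4 elongating spermatid, 2 of 6 round spermatid and 2 of 5 tested spermatocyte markers. Over all genes tested this share was 8.07%. KO and WT animals did not overlap for 3, 3 and 2 of these markers, against 19.9% of all genes. Limma called 0 of them (criteria below), against 0.0352% of all genes. The study's own marker comparison, which plotted transition protein and protamine genes too, reported no significant difference between groups. The 4 elongating spermatid markers (Tnp1, Tnp2, Prm1 and Prm2) summed to between 233289 and 249362 normalized counts in WT, 179063 to 214894 in Het and 123388 to 199672 in KO, and 4 of 4 were lower in KO than in WT. The 6 round spermatid markers summed to between 6725 and 8516 in WT and 3419 to 5348 in KO, with 5 of 6 lower. The 6 spermatocyte markers summed to between 1978 and 2255 in WT, 1585 to 4149 in Het and 3054 to 3629 in KO. Of these, 5 of the 5 tested were higher in KO than in WT. Sertoli and Leydig cell markers overlapped between WT and KO (Sertoli sums 4757 to 5146 and 4007 to 6997, Leydig sums 2961 to 4753 and 2719 to 3816), as did the sums for smooth muscle, endothelial cells, leukocytes, erythrocytes and spermatogonia. Epididymis markers summed to at most 8.69 in any library, and 4 of the 6 were at 0 in all 9. In bulk testis RNA, fewer cells of a type and less RNA per cell cannot be told apart.

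The first question was which actin assembly genes differ between KO and WT testis. Only 3 genes had an unadjusted p under 0.05, each lower in KO: Capzb, the β subunit of CapZ, Arpc5l, a subunit of the Arp2/3 complex, and Diaph3, a diaphanous formin. None of the 48 members tested was called by limma (which required an adjusted p under 0.05 together with a log2 fold change beyond 1.5, higher or lower), against 0.0352% of all 14223 genes tested. DESeq2 called 1 member, Actg1, against 0.703% of all genes, and edgeR 0. The unadjusted p was under 0.05 for 3 of the 48, against 8.07% of all genes, and all 3 were lower in KO, as were 5.03% of all genes. KO and WT animals did not overlap for 10 of the 48, 4 higher and 6 lower in KO, against 19.9% of all genes. By unadjusted p and by lack of overlap, the members' shares were close to those of all genes.

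The median log2 fold change of the 48 members was 0.17, with 33 higher and 15 lower in KO, beside a median of 0.02 over all genes tested. Without WT1 the median of the 47 members tested was 0.02, with 24 higher and 23 lower, beside -0.03 over all genes. The surplus of higher over lower members thus shrank to 1 gene once WT1 was left out.

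**Figure D2:**
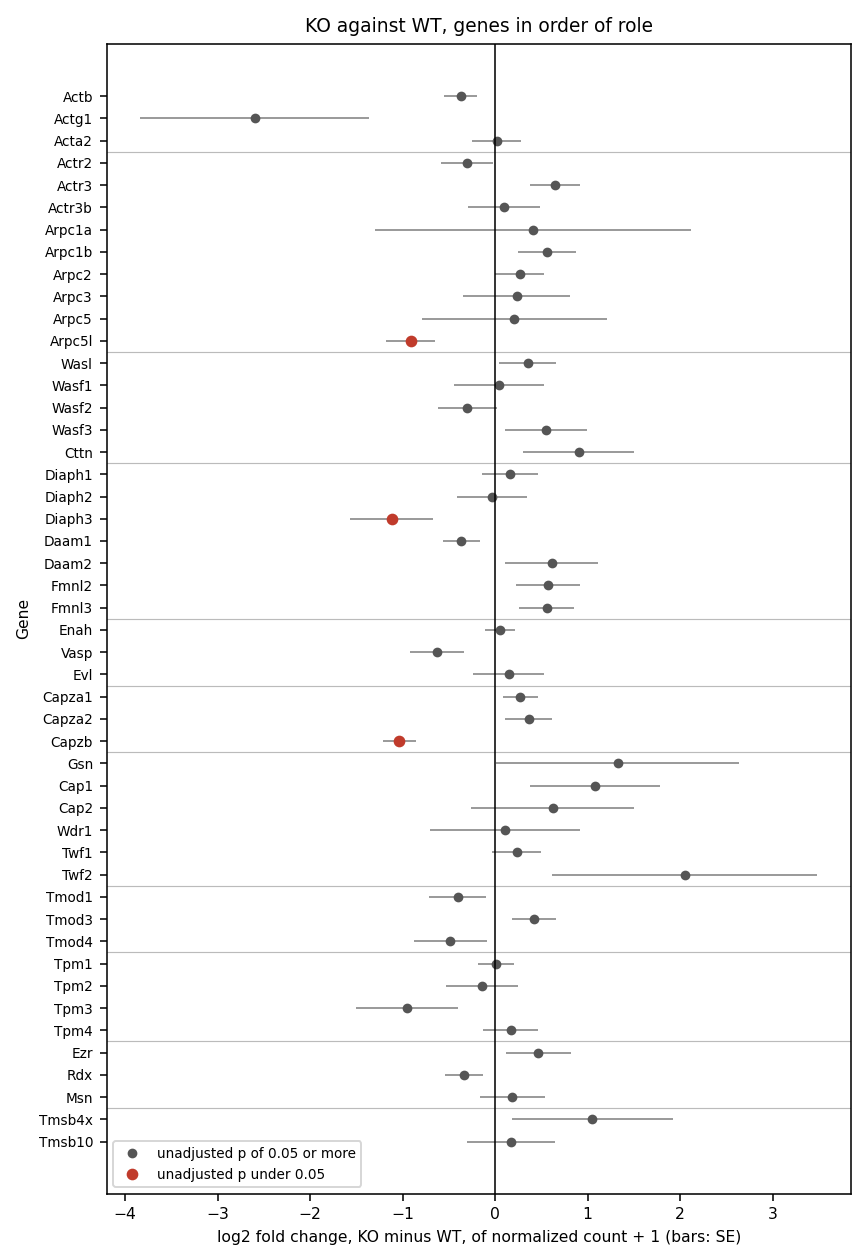
Log2 fold change of KO minus WT (horizontal axis, on normalized count + 1) for the 48 actin assembly genes tested, in order of role (vertical axis), with bars of 1 SE and grey lines between role classes. Red points mark the 3 genes with an unadjusted p under 0.05, Capzb, Arpc5l and Diaph3, all left of 0. Actg1 at -2.60 has a long bar.

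Among the barbed-end capping genes, Capzb carried the smallest p-value of the whole set. The gene lies at chr4:139192899-139291818, plus strand in GRCm38. Normalized counts of Capzb were 1138, 1107 and 1069.8 in WT, 390.2, 1056 and 577 in Het and 593, 453 and 584 in KO. The 3 WT animals lay within a narrow range, all KO animals were below them, and Het2 was close to the WT level whereas Het1 and Het3 were at the KO level. Mean Capzb was 1105 ± 34.1 for the WT animals, 674 ± 343 for Het and 543 ± 78.5 for KO (± SD, n = 3). The log2 fold change of KO against WT was -1.03 (SE 0.18), with an adjusted p = 0.349 by limma and 0.000927 by DESeq2, whose fold change of -1.01 lay under the limit of 1.5 for a call. Without WT1 it was -1.01. Capza1 measured 254, 309.7 and 270.3 in WT, 465, 276 and 288 in Het and 374, 328 and 307 in KO. It overlapped between KO and WT, at a log2 fold change of 0.27 (SE 0.19). Capza2 was higher in all 3 KO animals than in all WT animals, with 100.3, 156 and 164 in WT, 179, 160.2 and 144 in Het and 189, 166 and 175 in KO (log2 fold change 0.36, SE 0.25, adjusted p = 0.643), and without WT1 its log2 fold change was 0.14. None of these 3 subunit genes passed the adjusted threshold of limma, and the difference between subunits was not tested. A further CapZ gene, Capza3, was not a member but belonged to the list of other capping, severing and depolymerising factors, and its values are not described here. Capg, a gelsolin-like capping protein, lay between 0 and 9.66 normalized counts, with 0 reads in 3 libraries, and was not tested.

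The spermatid marker sums were also lower in KO than in WT. The elongating spermatid sum was 233848, 249362 and 233289 in WT, 179063, 214894 and 213617 in Het and 192069, 123388 and 199672 in KO, and the round spermatid sum was 8516, 6931 and 6725 in WT, 5228, 6906 and 6205 in Het and 5348, 3419 and 5348 in KO. In both sums, as in Capzb, Het1 was the lowest Het animal and KO2 the lowest KO animal, whereas Het3 was near the KO animals in Capzb but above all of them in both sums. Whether the spermatid share of the RNA had a part in the lower Capzb values was not tested.

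**Figure D3:**
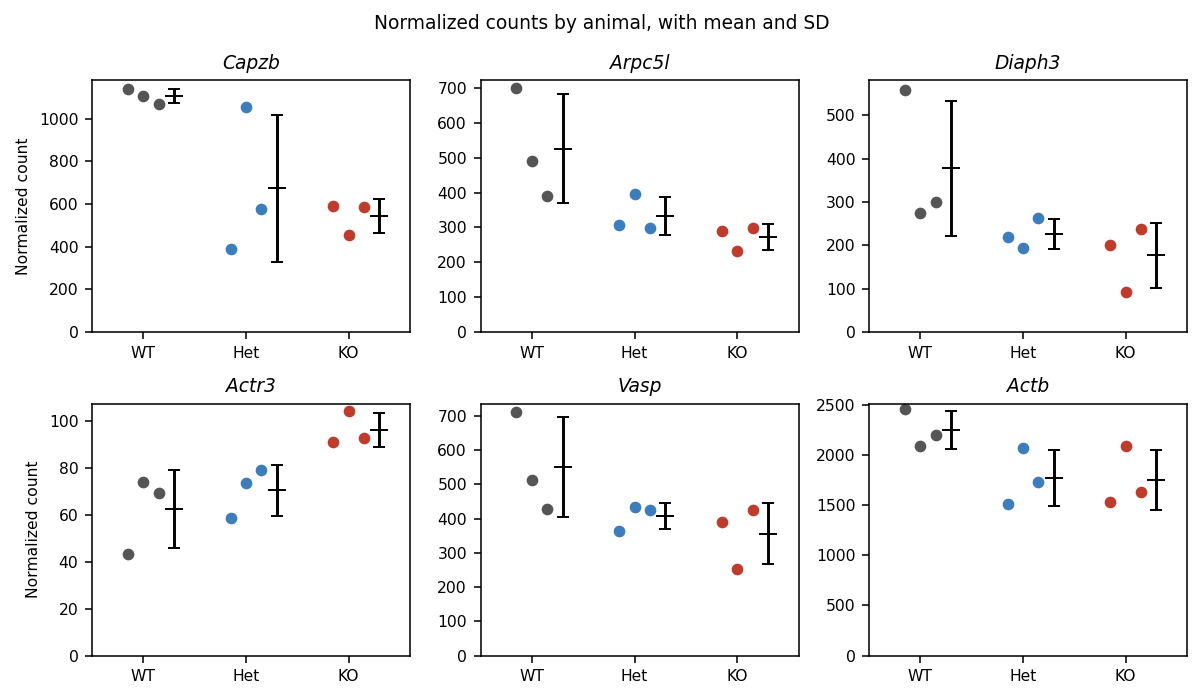
Normalized counts (vertical axes, each from 0) of 6 genes in the 9 animals, by genotype (horizontal axes). Points are animals, and the bar beside each group is the mean ± SD (n = 3). In Capzb the KO animals lie between 453 and 593 and the WT animals between 1070 and 1138, and in Actr3 the KO animals lie above all others.

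In the Arp2/3 complex, 9 of the 10 subunit genes were in the table and all 9 were tested in KO against WT, with 7 higher and 2 lower and a median log2 fold change of 0.23. Without WT1, 5 of the 8 tested were higher and 3 lower, with a median of 0.14. Arpc5l, which encodes one form of the small p16 subunit, lies at chr2:39005348-39015877, plus strand. Its normalized counts were 698, 489 and 391 in WT, 306, 397 and 298 in Het and 289, 231 and 298 in KO. All KO values were below all WT values, the highest KO and the lowest Het animal were nearly equal, and WT1 was the highest animal. The log2 fold change of KO against WT was -0.91 (SE 0.27, unadjusted p = 0.0129, adjusted p = 0.61), and without WT1 it was -0.69. The 5′ end of Arpc5l overlaps that of Rpl35, a ribosomal protein gene on the opposite strand, and the strand setting of the counting is not given in the sources used here. Rpl35 measured 1611, 1839 and 1349.8 in WT, 756, 1419 and 795 in Het and 1265, 787 and 856 in KO and also did not overlap between KO and WT. Its part in the Arpc5l counts was not tested. Arpc1a, Arpc1b, Evl, Capza1, Vil1, Cap1, Twf1, Tmod1 and Ezr also overlap another coding gene in the annotation, and their counts are uncertain to that extent.

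The paralogous subunit Arpc5 did not follow Arpc5l. It measured 70.6, 23.2 and 21.2 in WT, 34.0, 14.0 and 16.9 in Het and 12.9, 24.2 and 169 in KO, with KO3 alone far above the other animals. Actr3, the Arp3 subunit, went the other way from Arpc5l. Its normalized counts of 43.3, 74.3 and 69.5 in WT, 58.6, 73.6 and 79.4 in Het and 91.0, 104 and 92.9 in KO placed every KO animal above every WT and Het animal (log2 fold change 0.65 against WT, SE 0.27, unadjusted p = 0.051, adjusted p = 0.61). WT1 held the lowest value, and without it the log2 fold change was 0.41. Arpc2, chosen as the subunit gene with the highest mean, measured 1127, 1294 and 683 in WT, 1364, 1137 and 1145 in Het and 1190.4, 1237 and 1177 in KO. Apart from a low WT3, its animals lay close together, at a mean of 1202 ± 31.7 in KO (SD, n = 3) and a log2 fold change of 0.27 (SE 0.26).

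Arpc1a was the least even gene of the complex. The counts of its locus, 7.43, 374 and 392 in WT, 3.78, 363 and 26.5 in Het and 343, 253 and 32.2 in KO, fell into high and low animals within each genotype, with WT1, Het1, Het3 and KO3 at 32.2 or less and the other 5 at 253 or more. Its log2 fold change of KO against WT was 0.41 (SE 1.71) with WT1 and -1.43 without it. Its paralogue Arpc1b, which can take the same place in the complex, lay between 227 and 636 in all animals, lowest in WT1. Actr2 ranged from 109 to 223, Actr3b from 8.50 to 25.2 and Arpc3 from 3.86 to 14.6 normalized counts over the 9 animals, and none of them separated KO from WT.

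Of the 5 Arp2/3 activators, 4 were higher and 1 was lower in KO than in WT, and none had an unadjusted p under 0.05. Without WT1, 3 were higher and 2 lower. Wasf2 (WAVE2), the activator with the highest mean, measured 261, 265 and 449.9 in WT, 375, 351 and 431 in Het and 185, 306 and 295 in KO. The KO animals were below all Het animals but overlapped WT, with a log2 fold change of -0.59 against Het (SE 0.24, unadjusted p = 0.0464, adjusted p = 0.973) and -0.30 against WT (SE 0.32). Without KO1, the lowest animal, the difference from Het was -0.35 (unadjusted p = 0.105). Cttn, cortactin, which stabilises Arp2/3 branches, was low only in WT1, at 28.5 against 115 to 193 elsewhere. Its log2 fold change in KO was 0.91 with WT1 and 0.23 without it. Wasl (N-WASP) ranged from 115 to 239.9, Wasf1 from 17.3 to 55.7 and Wasf3 from 11.1 to 33.1.

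Formins processively lengthen filaments while binding profilin-actin. Diaph3, at chr14:86655367-87141235, minus strand, was the formin with the highest mean and the only one with an unadjusted p under 0.05. Its normalized counts were 557, 274 and 300.3 in WT, 219, 195 and 262 in Het and 201, 92.9 and 238 in KO. Every WT animal was above every Het and KO animal, WT1 was well above the other WT animals, and KO2 was the lowest of all. The log2 fold change of KO against WT was -1.12 (SE 0.45, unadjusted p = 0.0461, adjusted p = 0.61), and without WT1 it was -0.80 with an unadjusted p of 0.119. Without KO2 it was -0.71. Daam1 also did not overlap, at 178 to 230 in WT and 139 to 174 in KO (log2 fold change -0.36, SE 0.20, adjusted p = 0.629). The other formins tested ranged from 80.5 to 157 (Diaph1), 49.2 to 121 (Diaph2), 19.8 to 91.9 (Daam2), 17.4 to 38.4 (Fmnl2) and 17.4 to 36.8 (Fmnl3), and overlapped between KO and WT. Fmnl2 had a log2 fold change of 0.57 (SE 0.34) with WT1 and 0.88 without it, where its unadjusted limma p was 0.012. In that fit 1240 of 13964 genes had an unadjusted p under 0.05. Fmnl1 was at 5.79 or less in 8 animals and at 66.1 in KO3, and was not tested.

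The Ena/VASP proteins deliver profilin-actin to barbed ends. Enah, the family member with the highest mean, measured 509, 511 and 508 in WT, 525, 667 and 325 in Het and 513, 578 and 500.5 in KO, with WT and KO overlapping (log2 fold change 0.06, SE 0.16). Vasp was lower in all KO than in all WT animals, with 713, 512 and 429.7 in WT, 363, 434 and 424 in Het and 389, 254 and 425 in KO. Its log2 fold change was -0.63 (SE 0.29, unadjusted p = 0.0732, adjusted p = 0.613) and -0.43 without WT1, and WT1 and KO2 were the highest and the lowest animal. Evl lay between 54.5 and 136, overlapping between genotypes.

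The 3 actins behaved unlike each other. Actb, cytoplasmic β-actin, measured 2464, 2096 and 2202 in WT, 1516, 2069 and 1736 in Het and 1535, 2094 and 1634 in KO. The lowest WT and the highest KO animal differed by less than 2 normalized counts, so the groups were just apart (log2 fold change -0.37, SE 0.18, adjusted p = 0.615). Acta2, the smooth muscle actin of myoid cells and vessels, measured 305, 199.7 and 206 in WT, 481, 223 and 244 in Het and 184, 269 and 263 in KO, with Het1 highest and a log2 fold change of 0.02 (SE 0.27) between KO and WT, or 0.21 without WT1.

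Actg1, cytoplasmic γ-actin, lies at chr11:120345690-120348542, minus strand. The normalized counts of its locus were 612, 1926 and 54.1 in WT, 136, 1881 and 63.5 in Het and 48.1, 87.1 and 67.0 in KO. WT2 and Het2 were the highest by far, WT1 was at 612, and the other 6 animals, including WT3 and all KO animals, were at 136 or less, so the groups overlapped. The log2 fold change of KO against WT was -2.60 by limma (SE 1.24, adjusted p = 0.614) and -3.66 by DESeq2 (adjusted p = 0.0246). The DESeq2 adjusted p was 0.225 without WT1, 0.479 without WT2 and 1.03e-08 without WT3, so the call depended on which WT animals entered. The serum response factor gene Srf, whose product binds CArG boxes, lay between 104 and 160 in all animals. Whether it binds the motif shown above, or has a part in the Actg1 values, was not tested. Whether reads of Actg1 were shared with its processed copies was not tested, and the table holds 0 rows of a pseudogene biotype.

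**Figure D4:**
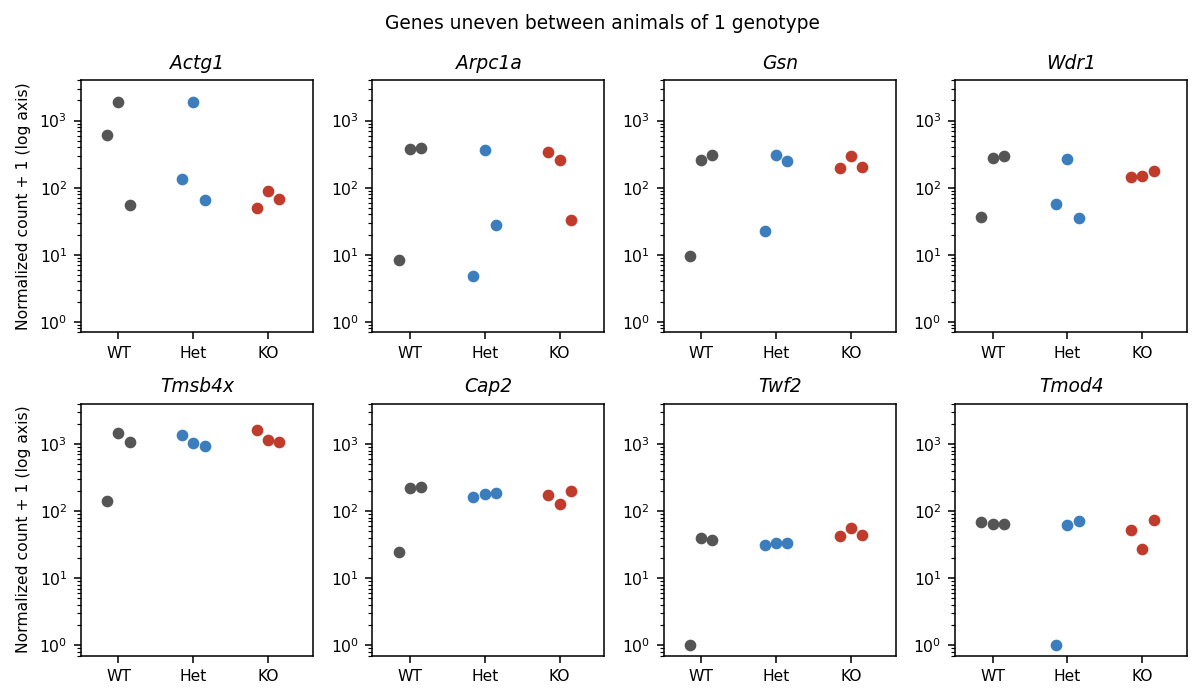
Normalized count + 1 (vertical axes, logarithmic and the same in all panels) of 8 genes in the 9 animals, by genotype (horizontal axes). Each point is 1 animal. Actg1 and Arpc1a fall into high and low animals within a genotype, WT1 is the low WT animal in 6 panels, from Arpc1a to Twf2, and Tmod4 has 0 reads in Het1 only.

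Genes for severing and disassembly were the class in which WT1 weighed most. All 6 genes tested were higher in KO than in WT, with a median log2 fold change of 0.85, and none had an unadjusted p under 0.05. Without WT1, 3 of the 6 were higher and 3 lower, with a median of -0.11. Gsn (gelsolin), the gene of this class with the highest mean, measured 8.67, 257 and 301 in WT, 21.7, 310.1 and 249 in Het and 198, 291 and 202 in KO. WT1 and Het1 were far below the other 7 animals, whose values spanned 198 to 310. For Gsn the log2 fold change in KO was 1.32 (SE 1.31) with WT1 and -0.29 without it.

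Wdr1, the AIP1 cofactor of cofilin, was low in WT1, Het1 and Het3, with 35.9, 273 and 297 in WT, 56.7, 265 and 33.9 in Het and 142, 150.0 and 174 in KO. Its log2 fold change in KO was 0.11 with WT1 and -0.88 without it, where the unadjusted p was 0.00341 and the adjusted p 0.305. The cyclase-associated protein gene Cap2 was at 23.5 in WT1 and between 129 and 227 elsewhere, with a log2 fold change of 0.62 (SE 0.88) with WT1 and -0.45 without it. Twf2 (twinfilin-2) had 0 reads in WT1, and measured 0, 38.6 and 36.7 in WT, 30.2, 32.6 and 32.8 in Het and 42.1, 55.1 and 42.9 in KO. Its KO animals were above all others, with a log2 fold change of 0.53 against Het (SE 0.21, unadjusted p = 0.0446, adjusted p = 0.973) and, against WT, of 2.05 (SE 1.43) with WT1 and 0.29 without it. Cap1 ranged from 7.45 to 57.1 in 8 animals and reached 193 in KO3, and Twf1 ranged from 43.8 to 111. Vil1 (villin), an epithelial severing protein, had 0 reads in every library, which allows at most 3.71 normalized counts in any of them.

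At pointed ends, Tmod1, the tropomodulin with the highest mean, measured 348, 195 and 183 in WT, 206, 208 and 226 in Het and 175, 146 and 208 in KO, highest in WT1 (log2 fold change -0.41 in KO, SE 0.31, and -0.11 without WT1). Tmod3 was slightly higher in all KO animals (93.6 to 98.3) than in WT (55.7 to 85.9), with a log2 fold change of 0.42 (SE 0.23, adjusted p = 0.629) and 0.24 without WT1. Tmod4 had 0 reads in Het1 and lay between 26.1 and 72.4 in the other animals. No tropomodulin passed a threshold.

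Tropomyosins lie along the filament and limit access of severing proteins. Tpm1 was the one with the highest mean and measured 168, 152 and 149 in WT, 300.5, 126 and 161 in Het and 146, 183 and 147 in KO. Tpm2 measured 102, 49.2 and 39.6 in WT, 135, 50.3 and 59.3 in Het and 49.0, 49.3 and 60.8 in KO. Both were highest in Het1, as was Acta2, and the 8 smooth muscle and myoid markers also summed highest there, at 1086 against 574 to 930 in the other animals. The part of myoid cells in these values was not tested. Between KO and WT, the log2 fold change was 0.01 (SE 0.20) for Tpm1 and -0.14 (SE 0.39) for Tpm2. Without WT1 it was 0.07 for Tpm1 and 0.25 for Tpm2, whose direction turned. Tpm3 was low in Het1, KO1 and KO2 (52.4 to 86.0) and between 142 and 249 in the others, with a log2 fold change of -0.95 (SE 0.55) in KO. Tpm4 ranged from 40.9 to 74.3.

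Ezrin, radixin and moesin anchor filaments to the plasma membrane. Rdx, radixin, had the highest mean of these and measured 1692, 1211 and 1395 in WT, 864, 1226 and 1022 in Het and 1294, 946 and 1159 in KO. The KO animals overlapped WT (log2 fold change -0.34, SE 0.21, and -0.21 without WT1), and Het1 was the lowest animal. Ezr ranged from 41.5 to 103 and Msn from 8.47 to 52.0, both overlapping between genotypes.

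Of the thymosins, which bind monomers in competition with profilin, Tmsb10 had the higher mean and measured 1234, 4125 and 3842 in WT, 2200.5, 3586 and 3294 in Het and 3326, 2687 and 3143 in KO. Tmsb4x measured 141, 1461 and 1087 in WT, 1357, 1051 and 919 in Het and 1609, 1147 and 1083 in KO. WT1 was the lowest animal in both, and far below the rest in Tmsb4x. The log2 fold change of Tmsb4x in KO was 1.05 (SE 0.87) with WT1 and -0.00 on the log2 scale without it. That of Tmsb10 was 0.17 (SE 0.47) with WT1 and -0.39 without it, the latter with an unadjusted limma p of 0.0443. In the fit without WT1, 1240 of 13964 genes had an unadjusted p under 0.05.

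**Figure D5:**
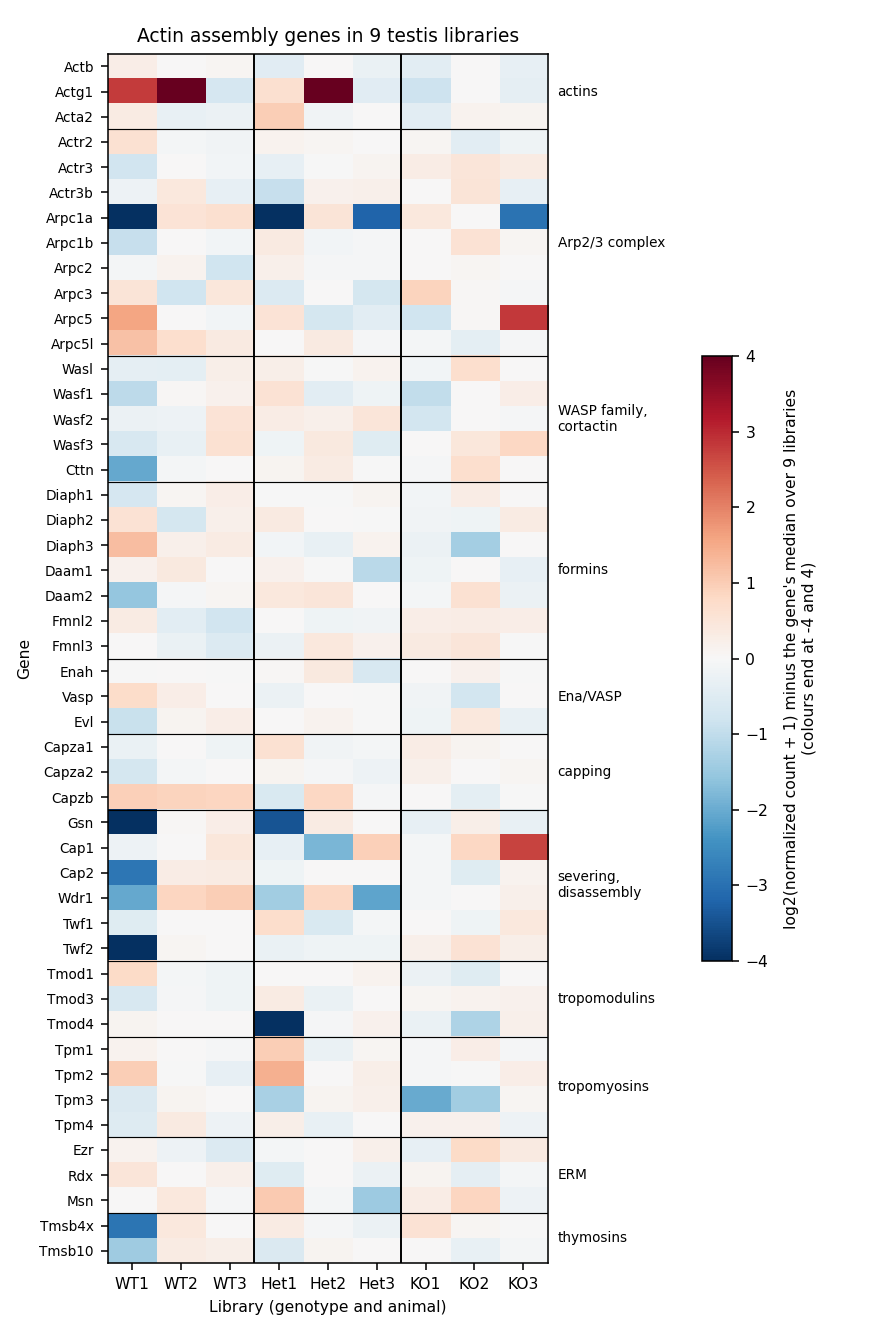
Log2(normalized count + 1) minus the gene's median over the 9 libraries, as colour (red above, blue below, ending at -4 and 4), for the 48 actin assembly genes that reached 10 normalized counts in 3 or more libraries (rows, by role) in the 9 libraries (columns, vertical lines between genotypes). Capzb is red in all WT libraries and Het2, Actg1 is darkest in WT1, WT2 and Het2, and WT1 holds more dark blue cells than any other library.

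How far animals of 1 genotype spread was counted over the same 48 genes. The highest animal was at least 4 times the lowest, on normalized count + 1, for 8 of the 48 in WT against 17.8% of all genes, for 7 in Het against 14.9%, and for 4 in KO against 10.3%. The members spread about as often as other genes in each genotype.

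The second question was whether loss of 1 Pfn3 allele goes with a difference. In Het against WT, limma called 0 of the 47 members tested, against 0% of all 14216 genes, as did edgeR and DESeq2 for the members. The unadjusted limma p was under 0.05 for 0 of the 47, against 3.34% of all genes. Het and WT did not overlap for 3 members, against 13.3% of all genes: Capzb (log2 fold change -0.83, SE 0.37, adjusted p = 0.779), Diaph3 (-0.68, SE 0.32) and Actb (-0.35, SE 0.17), all lower in Het. Arpc5l overlapped, at -0.63 (SE 0.27). Without WT1 the log2 fold change was -0.36 for Diaph3 and -0.40 for Arpc5l. The median log2 fold change of the members was 0.14 with WT1 and -0.14 without it, beside 0.007 and -0.03 over all genes.

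In KO against Het, limma, edgeR and DESeq2 called 0 of the 47 members tested, where limma called 0.0558% of all 14343 genes. The unadjusted p was under 0.05 for 2 of the 47, against 3.56% of all genes, namely Twf2, higher in KO, and Wasf2, lower in KO. The groups did not overlap for 5 members, against 10% of all genes: Twf2, Actr3 and Fmnl2 higher and Wasf2 and Arpc5l lower in KO. The log2 fold change of Actr3 was 0.45 (SE 0.19, adjusted p = 0.973) and that of Capzb -0.20 (SE 0.37). The median over the members was 0.06, beside -0.003 over all genes, and -0.02 without Het3, with 23 higher and 24 lower. Each pair of the 3 comparisons shares 1 group of animals.

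Other genes of the pathway were read from 4 lists. Over all genes tested in KO against WT, 8.07% had an unadjusted limma p under 0.05, and this share stands beside the count of each list. Among 17 tested nucleation and elongation factors outside the set, 2 had an unadjusted p under 0.05 in KO against WT, both lower. The formin Fhod1 had the smallest p of them, at 103, 87.8 and 113 in WT, 77.5, 121 and 111 in Het and 60.1, 47.4 and 59.0 in KO (log2 fold change -0.85, SE 0.22, adjusted p = 0.61). Among 19 capping, severing and depolymerising factors, 1 was higher and 2 were lower at that level, led by Mical3, an enzyme that oxidises actin (-0.83, SE 0.26, adjusted p = 0.61).

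In the list of 12 profilins, cofilins and cofilin regulators tested, 1 was higher and 1, Pfn3, lower at an unadjusted p under 0.05. Cfl1, cofilin-1, which severs filaments, measured 19.8, 13.5 and 12.6 in WT, 9.45, 27.9 and 22.2 in Het and 137, 90.0 and 160.0 in KO. All KO animals were far above all WT and Het animals, and no other gene of the 4 lists had so small a p (log2 fold change 2.98, SE 0.32, limma adjusted p = 0.0993), and DESeq2 called it. Among 20 cross-linkers and motors, 1 was higher and 2 were lower. Myo6, the motor that walks towards pointed ends, measured 161, 144 and 130.3 in WT, 40.6, 139 and 38.1 in Het and 61.0, 56.1 and 88.5 in KO (log2 fold change -1.09, SE 0.25, adjusted p = 0.562), and Myo1c, called by DESeq2, was high in KO2 and KO3 only (2.70, SE 1.01, adjusted p = 0.61 by limma). None of the genes of these 4 lists was called by limma in KO against WT.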

How the data were processed

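Testis RNA of 3 WT, 3 Het and 3 KO mice was measured with QuantSeq 3′ libraries. According to the study's methods and the submitters' processing notes, reads were trimmed with Trim Galore 0.4.5, aligned to GRCm38 with HISAT2 2.1 and counted per gene with StringTie 1.3.3, and pseudogenes were removed. The deposited values are a signal per gene, the read count divided by 1 size factor per library. As each library's values stood at whole multiples of its lowest step in 100% of cases (tolerance 0.001), whole counts were recovered, between 3375546 and 4287335 per library. These are the gene-level counts that the study prepared with the StringTie package, and they are called reads here. Whether they equal numbers of sequenced reads was not tested. Such counts limit precision for counting error only, and 3 reads served as the floor for detection. Replicate libraries differed beyond 2 Poisson SDs in 41.6 to 77.0% of well-covered genes, so none was a copy of another.

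Genes reaching 10 normalized counts in 3 or more of the 6 libraries were tested with limma 3.58.1 (eBayes with trend) on log2(normalized count + 1) in R 4.3.3, which understates changes of low genes, with Benjamini-Hochberg adjustment over all genes and the study's cutoffs for a call. The recovered reads were also tested with DESeq2 1.42.0 and edgeR 4.0.16. The scripts were tested on simulated data. Alternatives were other factors, pseudocounts, no filter, all 9 samples in 1 fit, a replicate block and leaving out animals. The DESeq2 fits of Actg1 without each WT animal were chosen after seeing the data. Members, role classes, pathway lists, cell markers and tests were chosen with earlier results of these data known. One further pathway list is not reported here. Named were members called or with an unadjusted p under 0.05 in any comparison, and the member with the highest mean of each role class, with every sample's value, the others by range, and outside the set Pfn3 and each list's called genes and its gene with the smallest p. Further members were given in every sample after their values were seen. Coordinates come from GENCODE vM21 and start-site windows from RefSeq (GRCm38.p6), and of the table's 38674 rows 38509 were matched.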

Additional observations from a re-analysis of the deposited data

How the results depend on the processing

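The number of genes called in KO against WT, 5 by limma, was 100 with DESeq2, 3 with all 9 samples in 1 fit, and 0 with the replicate block, and ranged from 0 (without WT2, WT3 or KO2) to 49 (without WT1) when 1 animal was left out. In Het against WT, 0 genes were called, against 31 with DESeq2, 1 with TMM factors, 2 with a pseudocount of 5, 3 without a filter and 3 with all 9 samples, and 0 to 3 (without Het2) when animals were left out. In KO against Het, 8 became 38 with DESeq2, 4 with all 9 samples and 0 with the replicate block, and ranged from 0 (without Het3 or KO1) to 39 (without Het2) when 1 animal was left out. The cause was not tested.

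The number of members with an unadjusted p under 0.05 was 3 in KO against WT, 5 with DESeq2, 6 with scaling by reads counted per library, 5 with all 9 samples and 3 to 5 (without WT1) when 1 animal was left out. Over all genes tested it was 1148 of 14223, and 1038 with DESeq2. It was 1333 of 14354 with scaling by reads per library, 1285 of 14223 with all 9 samples and 1240 of 13964 without WT1. In Het against WT the members' number was 0, but 1 without a filter, 2 with all 9 samples and 0 to 3 (without Het2) when animals were left out. Over all genes it was 475 of 14216, 791 of 24069 without a filter, 806 of 14216 with all 9 samples and 745 of 13763 without Het2. In KO against Het the members' number was 2, but 1 with DESeq2, with a pseudocount of 5, without a filter and with the replicate block, 0 with scaling by reads per library and with all 9 samples, and 0 (without Het1 or KO1) to 2 when 1 animal was left out. Over all genes it was 510 of 14343, 419 with DESeq2, 522 with a pseudocount of 5 and 879 of 24352 without a filter. It was 403 of 14343 with the replicate block, 529 of 14575 with scaling by reads per library and 401 of 14343 with all 9 samples. Without Het1 it was 724 of 14012, and without KO1 311 of 13968.

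Scaling by reads per library moved the median log2 fold change of all genes from 0.02 to 0.22 in KO against WT and from 0.007 to 0.16 in Het against WT. The members' median was then 0.37 and 0.29. Leaving out 1 animal gave member medians of 0.0203 (without WT1) to 0.30 in KO against WT and -0.14 (without WT1) to 0.20 in Het against WT. Without both WT1 and Het1, an alternative chosen after seeing the data, the latter was -0.08. In KO against Het the members' median of 0.06 ranged from -0.02 (without Het3) to 0.09 and was 0.0038 without KO2. The 6 named fold changes kept their sign under all of their alternatives. Capzb ranged from -1.10 to -0.83 and Arpc5l from -1.11 to -0.69 with an unadjusted p under 0.05 in 15 of 15, Diaph3 from -1.38 to -0.71 with 10 of 15, and Actg1 from -4.21 to -1.47 with 6 of 18. In KO against Het, Wasf2 ranged from -0.72 to -0.35 with 5 of 15 and Twf2 from 0.40 to 0.60 with 3 of 15. Same-numbered animals of different genotypes had correlations of deviations between -0.14 and 0.19, and differently numbered ones between -0.24 and 0.19. With 3 animals per genotype these values cannot settle whether the numbers pair animals, and the labels do not say. The paired fit (replicate block) is given only here. Depth limits genes near 3 reads, such as Capg, Fmnl1 and Arpc3.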
